A study of Mus with 6 samples.

Results

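Dusp4, a phosphatase that switches off mitogen-activated protein kinases, was described here together with the other inhibitors that restrain the ERK pathway, in chondrocytes with and without Sirt6. The rule named 9 genes, and 8 of them had a row of the table on which counts and gene labels line up. They were the ERK phosphatases Dusp4, Dusp5 and Dusp6, the stress-kinase phosphatases Dusp8 and Dusp16, and the Sprouty-type inhibitors Spry1, Spred1 and Spred2, out of 11659 genes in all. Dusp10, the remaining name, was not analysed here. The set was chosen by the difference between the genotypes in Dusp4, whose reads were almost lost in Sirt6 cKO samples, and the other genes were added by name as inhibitors of the same kind. For this reason the differences between genotypes of these 8 genes are given as a description and without a test.

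RNA was sequenced from knee cartilage chondrocytes of 12-week-old C57BL/6J mice, 3 samples labelled wild type (WT) and 3 labelled Sirt6 cKO. The study's methods state that chondrocytes were released from cartilage by enzymes, cultured with serum and used at first passage throughout. The levels given here are thus taken as those of cultured cells rather than of fresh cartilage. The Sirt6 cKO mice are Col2a1-CreERT2;Sirt6 flox/flox, in which tamoxifen activates a Cre recombinase driven by the promoter of the cartilage collagen gene Col2a1. Adult mice of the same study, WT mice included, received daily tamoxifen injections before joint surgery, but no source ties that schedule to these samples, or says whether these WT mice were injected or carried a floxed allele or the Cre. The wording on data access, with 3 control and 3 Sirt6-deficient mice, can be read as 1 mouse per sample. No label ties a sample to an animal, so p-values measure the spread between these samples, which may be partly technical.

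Growth factor receptors activate ERK through Ras, Raf and the kinase MEK. Active ERK induces transcripts of its own inhibitors, which forms a negative feedback loop. Dual-specificity phosphatases remove the activating phosphates from the kinases themselves, in the nucleus (Dusp4, Dusp5) or in the cytoplasm (Dusp6), whereas Dusp8 and Dusp16 act mainly on the stress kinases JNK and p38. Sprouty and Spred proteins sit at the membrane and act upstream, between the receptor and Raf. In the growth plate, FGF receptor signaling through ERK is known to restrain chondrocyte proliferation and to influence hypertrophy.

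The total count was between 25726958 and 30156935 per sample. Sirt6, the deleted gene, had 9963 to 10943 counts in WT and 660 to 1056 in Sirt6 cKO samples, so the labels fit the targeted gene. WT replicate 1 stood apart from the other WT samples, with fewer reads on long transcripts. Across 6615 tested rows that line up, the log2 ratio of WT replicate 1 to the mean of WT replicates 2 and 3 had a Spearman's rho of -0.478 with exon length, as a description across genes. The median ratio was 1.23 for transcripts with under 3000 bases of exon and 0.819 for those with over 6000. Of the 20 chondrocyte markers listed, 5 had a row that lines up. Sox9, the cartilage transcription factor, had 4917 to 5595 counts in WT samples, but the cartilage matrix genes Comp and Ucma had only 14 to 28 and 2 to 6, Col9a3 had 151 to 180 and Col11a1 had 143 to 235. Col2a1 and Acan were not analysed here.

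Dusp4 (ENSMUSG00000031530, chromosome 8 from 34807297 to 34819894 on the plus strand in GRCm38 positions) encodes a nuclear phosphatase that acts on ERK and also on JNK. Its raw counts were 745, 743 and 813 in the WT samples and 15, 13 and 10 in the Sirt6 cKO samples. Every WT sample lay far above every Sirt6 cKO sample, and the 3 samples of a genotype lay close together. Expressed as CPM, the count scaled to the size and composition of the library by the TMM method, the level of Dusp4 was 27.7 ± 2.96 CPM in WT (SD, n = 3) against 0.428 ± 0.0881 CPM without Sirt6 (SD, n = 3). The log2 difference from the edgeR fit, Sirt6 cKO minus WT, was -6.00 ± 0.23 (SE). In sum, 38 counts in Sirt6 cKO stood against 2301 in WT, which is 1.56% of the WT level per read, with an exact 95% interval of 1.10% to 2.14% that covers counting error only. A residual of 10 to 15 reads was thus present in every Sirt6 cKO sample. No other annotated gene overlaps Dusp4. Of 11246 genes tested, 0.0711% had a more negative log2 difference. Dusp4 was chosen by this same difference, so nothing is read from its place.

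Per kilobase (kb) of exon, Dusp4 stood at 10.1 ± 1.08 CPM in WT (SD, n = 3), a level below which 44.1% of the rows that line up lay. In Sirt6 cKO samples it stood at 0.156 ± 0.0321 CPM per kb (SD, n = 3). Its rank there is not read, since the filter on low counts removed rows that were low in both genotypes, and Dusp4 passed it through the WT samples. The ratio of Dusp4 to Dusp6 per kb, which is taken within a library, was 0.248, 0.246 and 0.235 in the WT samples and 0.0146, 0.0141 and 0.00723 in the Sirt6 cKO samples. Dusp6 was itself lower in Sirt6 cKO samples, and the ratio rests on the same Dusp4 counts. In bulk samples, fewer cells that express a gene and less RNA in each cell cannot be told apart.

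Dusp5 (ENSMUSG00000034765, chromosome 19), the other nuclear ERK phosphatase, had 987, 905 and 874 counts in the WT libraries and 535, 366 and 819 in those of Sirt6 cKO. In CPM the 3 Sirt6 cKO samples, at 18.3, 12.2 and 27.6, lay below the 3 WT samples, at 41.0, 30.7 and 28.9, but Sirt6 cKO replicate 3 nearly reached the lowest WT value. The log2 difference was -0.79 ± 0.28 (SE). It was -1.12 without Sirt6 cKO replicate 3, -0.54 without Sirt6 cKO replicate 2 and -0.62 without WT replicate 1. Single libraries thus set much of its size. The ratio of WT replicate 1 to the other WT samples was 1.38 for Dusp5, 1.19 for Dusp4 and 1.15 for Dusp6.

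Dusp6 (ENSMUSG00000019960, chromosome 10), the cytoplasmic ERK phosphatase and a transcript widely used as a readout of ERK activity, had 3065, 3085 and 3530 counts in the WT libraries and 1045, 944 and 1412 in those of Sirt6 cKO. The genotypes were well separated, at 116 ± 11.4 CPM in WT (SD, n = 3) against 38.3 ± 8.42 CPM in Sirt6 cKO (SD, n = 3). The log2 difference was -1.60 ± 0.18 (SE). The row overlaps 1 annotated long non-coding RNA, Gm34921.

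**Figure D1:**
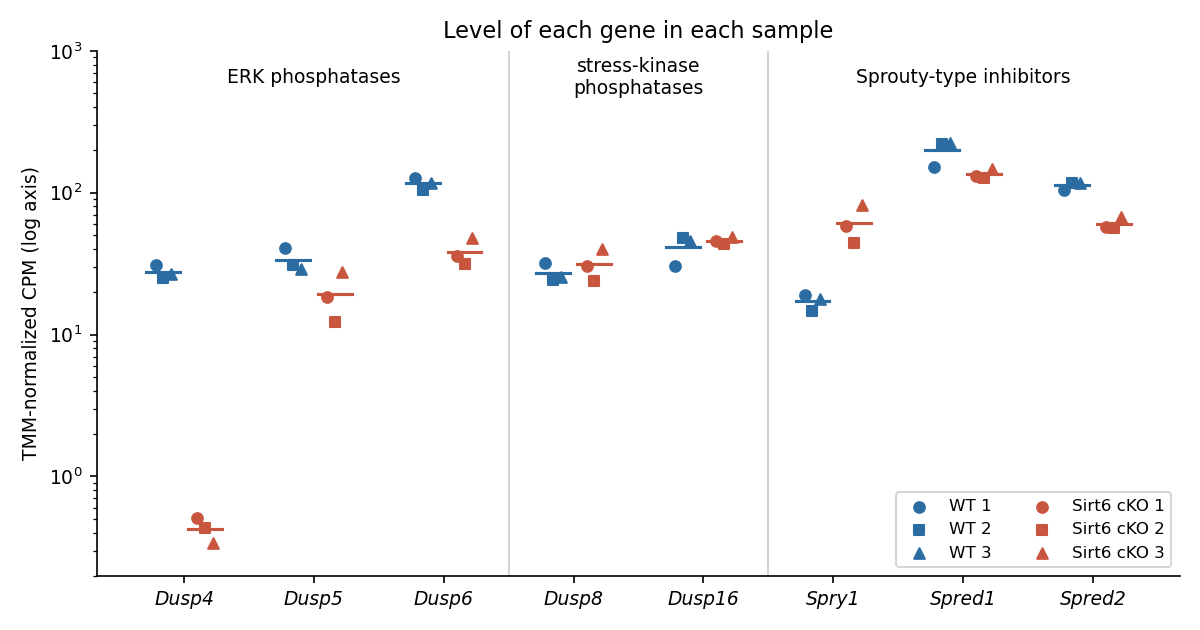
Level of each of the 8 genes in TMM-normalized CPM on a log axis, for 3 WT samples (blue) and 3 Sirt6 cKO samples (red), with marker shapes for the replicate number and a bar at the mean of each genotype. Dusp4 drops from 27.7 to 0.428 CPM on average, Dusp5, Dusp6, Spred1 and Spred2 are lower in Sirt6 cKO samples by less, Spry1 is higher, and the samples of Dusp8 and Dusp16 overlap.

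The stress-kinase phosphatases showed no such separation. Dusp8 (ENSMUSG00000037887, chromosome 7) had 772, 721 and 766 counts in the WT libraries and 886, 716 and 1189 in those of Sirt6 cKO, and in CPM the genotypes overlapped. Its log2 difference was 0.21 ± 0.21 (SE). It was 0.00 without Sirt6 cKO replicate 3, the sample with the highest level.
Dusp16 (ENSMUSG00000030203, chromosome 6) had 727, 1411 and 1386 counts in the WT libraries and 1325, 1297 and 1441 in those of Sirt6 cKO. WT replicate 1 was low and the other 5 samples were alike. The log2 difference was 0.15 ± 0.18 (SE), and it was -0.03 without WT replicate 1. Dusp16 has 7650 bases of exon, and its ratio of WT replicate 1 to the other WT samples was 0.645. The rows of both genes overlap annotated long non-coding RNAs, 1 for Dusp8 and 2 for Dusp16.

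The Sprouty-type inhibitors went in different directions. Spry1 (ENSMUSG00000037211, chromosome 3), which blocks receptor signaling to Ras and Raf, had 459, 430 and 540 counts in the WT libraries and 1707, 1324 and 2434 in those of Sirt6 cKO. Every Sirt6 cKO sample was above every WT sample. The level was 17.2 ± 2.32 CPM in WT (SD, n = 3) against 61.6 ± 19.3 CPM in Sirt6 cKO (SD, n = 3), a log2 difference of 1.84 ± 0.23 (SE). It was the only one of the 8 genes that was higher in Sirt6 cKO samples without overlap.

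Spred1 (ENSMUSG00000027351, chromosome 2) and Spred2 (ENSMUSG00000045671, chromosome 11) bind neurofibromin, the Ras inactivator encoded by Nf1, and bring it to the membrane. Spred1 had 3640, 6490 and 6765 counts in the WT libraries and 3820, 3807 and 4351 in those of Sirt6 cKO. Its WT replicate 1 was low, at 151 CPM against 220 and 224 in the other WT samples, and close to Sirt6 cKO replicate 3 at 147. The log2 difference was -0.56 ± 0.17 (SE), and it was -0.72 without WT replicate 1. With 6784 bases of exon, Spred1 is also a long transcript, and the part of transcript length in this spread was not tested. Spred2 had 2526, 3440 and 3517 counts in the WT libraries and 1669, 1687 and 2002 in those of Sirt6 cKO. Here the genotypes were apart, at 113 ± 6.63 CPM in WT (SD, n = 3) against 60.3 ± 6.35 CPM in Sirt6 cKO (SD, n = 3), with a log2 difference of -0.90 ± 0.13 (SE).

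Of the 8 genes, 5 were lower and 1 higher in Sirt6 cKO samples with no overlap between the genotypes, and 2 overlapped. Among all 11246 genes tested the genotypes did not overlap in 60.9%, with 30.6% lower and 30.2% higher in Sirt6 cKO samples. At an adjusted p under 0.05 and a fold change over 2, 15.9% of all genes were called, 8.72% higher and 7.15% lower. The choice of the genes rests on the same contrast, so nothing is read from these counts.

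In WT samples the order of levels per kb was Dusp6 at 41.6 CPM per kb, Spred1 at 29.2, Spred2 at 24.4, Dusp5 at 13.6, Dusp4 at 10.1, Spry1 at 5.91, Dusp8 at 5.60 and Dusp16 at 5.40. Spred1 and Spred2 overlapped between samples, as did Spry1 with Dusp8 and Dusp8 with Dusp16, and the remaining neighbours in this order were apart. In Sirt6 cKO samples Spry1 came first, at 21.2 CPM per kb, and overlapped Spred1 at 19.9. Dusp6 followed at 13.7, overlapping Spred2 at 13.1. Dusp5 at 7.84, Dusp8 at 6.45 and Dusp16 at 5.98 overlapped in turn, and Dusp4 was last and apart from them.

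The summed level of the 3 ERK phosphatases was 73.4, 59.0 and 63.2 CPM per kb in the WT samples and 20.4, 16.3 and 28.4 in the Sirt6 cKO samples, so the mean of Sirt6 cKO was 33.3% of that of WT. Dusp4 made up 15.4%, 15.6% and 15.5% of this sum in the WT libraries and 0.919%, 0.968% and 0.435% in those of Sirt6 cKO. The share of Dusp6 was almost the same in both genotypes, at 63.8 ± 2.02% and 63.9 ± 4.47% (SD, n = 3), whereas that of Dusp5 was 20.7 ± 2.07% in WT and 35.3 ± 4.71% in Sirt6 cKO (SD, n = 3). Without Dusp4 the sum was still 39.1% of that of WT.
The summed level of the 3 Sprouty-type inhibitors overlapped between the genotypes, at 51.6, 62.7 and 64.3 CPM per kb in the WT libraries and 51.8, 46.0 and 64.6 in those of Sirt6 cKO, while its makeup differed. Spry1 made up 10.1 ± 2.41% of it in WT and 38.5 ± 5.42% in Sirt6 cKO chondrocytes (SD, n = 3). The sum of Dusp8 and Dusp16 was 11.0 ± 0.403 CPM per kb in WT and 12.4 ± 2.05 in Sirt6 cKO (SD, n = 3), and the samples overlapped.

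**Figure D2:**
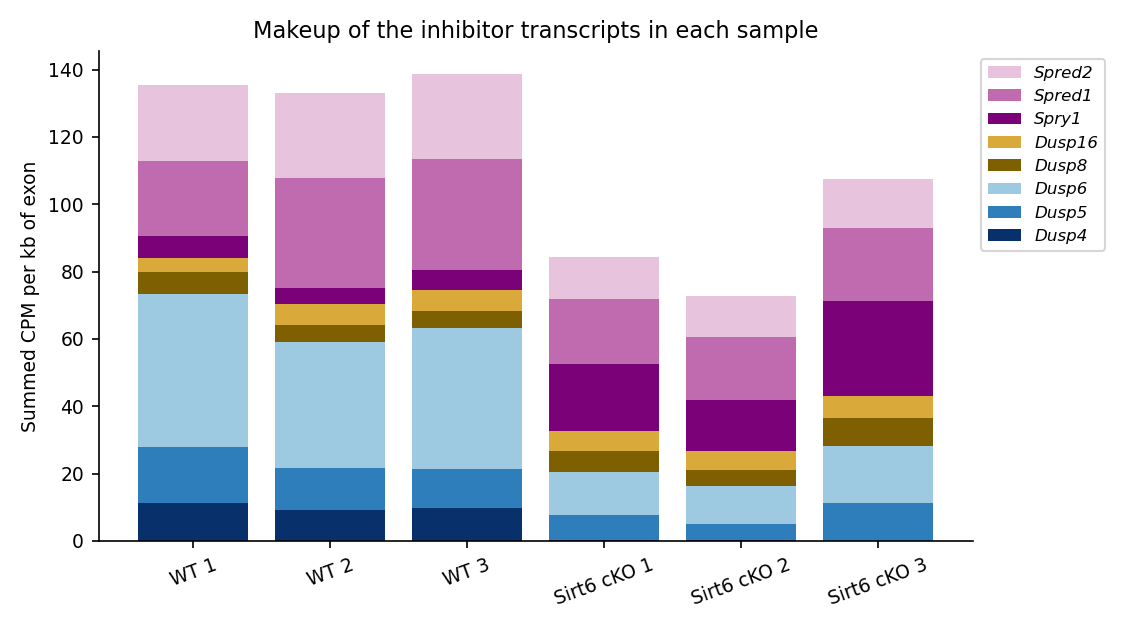
Stacked level of the 8 genes in CPM per kb of exon in each of the 6 samples, with the ERK phosphatases in blue, the stress-kinase phosphatases in brown and the Sprouty-type inhibitors in purple. The blue part shrinks from 59.0 to 73.4 in WT samples to 16.3 to 28.4 in Sirt6 cKO samples, and Spry1 fills a larger part of the purple block.

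Among the 3 Sirt6 cKO samples, 7 of the 8 genes shared 1 order, in which replicate 3 was highest and replicate 2 lowest. Over all tested genes 25.3% had that order. Dusp4 was the exception, with its lowest level in Sirt6 cKO replicate 3, although its 10 to 15 reads allow little resolution. The spread was widest for Dusp5, at a coefficient of variation of 40.2%, followed by Spry1 at 31.3%, Dusp8 at 26.2% and Dusp6 at 22.0%, and narrowest for Dusp16 at 6.07%. In WT samples the coefficients were between 5.89% for Spred2 and 23.4% for Dusp16. The genes were measured in the same 3 libraries, so they are not independent observations of this order.

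**Figure D3:**
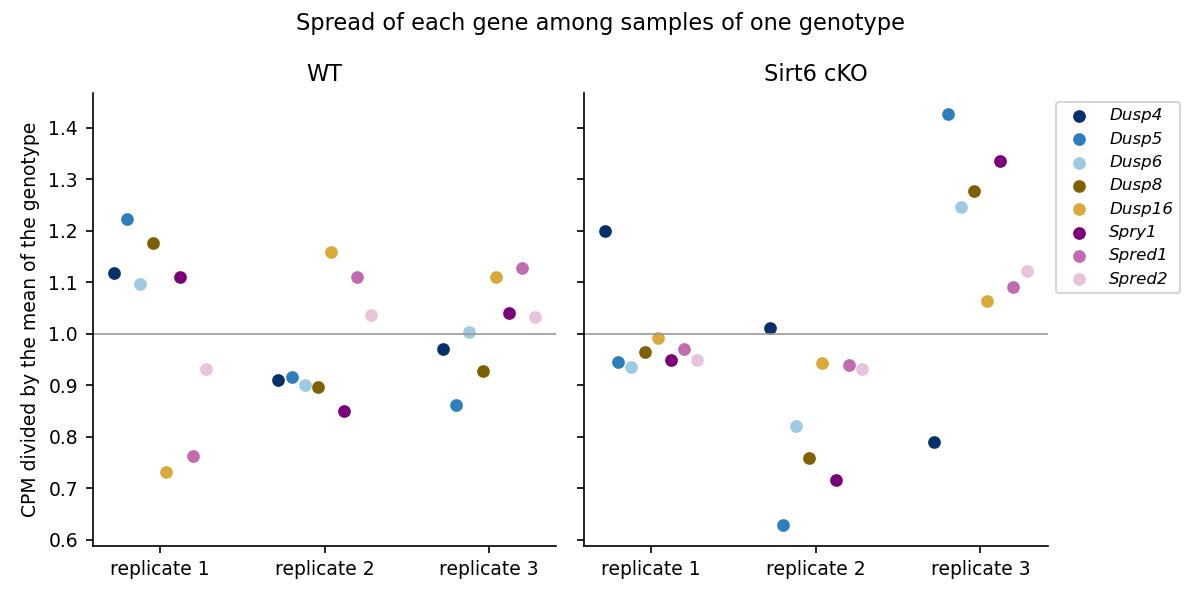
CPM of each of the 8 genes divided by the mean of its genotype, for the 3 WT samples (left) and the 3 Sirt6 cKO samples (right). In Sirt6 cKO replicate 3 every gene but Dusp4 lies above 1, and in WT replicate 1 Dusp16 and Spred1, both long transcripts, lie lowest.

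Genes whose pattern over the 6 samples was most like that of Dusp4 were sought among 6059 other named rows, by the root mean square difference of log2 CPM relative to the WT mean. Shank2, a scaffold protein of synapses, came first with a difference of 0.66, with 304 to 388 counts in WT and 7 to 14 in Sirt6 cKO samples. Itgb7, a leukocyte integrin subunit, differed by 0.70 and Ngef, a guanine nucleotide exchange factor, by 0.90. Atg9b, an autophagy membrane protein, differed by 1.26 and Rgs16, which ends G protein signaling, by 1.32. Rgs16 had 297, 271 and 394 counts in the WT libraries and 41, 16 and 7 in those of Sirt6 cKO. None of these 5 genes had a log2 difference as large as that of Dusp4, the nearest being Itgb7 at -5.11 ± 0.26 (SE).

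The nearest 2 rows that line up on each side of Dusp4 on chromosome 8 did not fall, and genes without such a row were passed over, so only Tnks lies close by. Tnks, which encodes a tankyrase and has its 3′ end 9.29 kb beyond the end of Dusp4, on the opposite strand, had 1395, 2941 and 3270 counts in the WT libraries and 3549, 4091 and 4304 in those of Sirt6 cKO. It had a log2 difference of 0.60 ± 0.22 (SE), and its adjusted p of 0.0521 did not pass the threshold of 0.05 in edgeR's quasi-likelihood test. It passed with the replicate number as a block, at 0.65 (adjusted p = 0.00713 in edgeR), and without WT replicate 1, at 0.37 (adjusted p = 0.0164 in edgeR), or WT replicate 3, at 0.78 (adjusted p = 0.0329 in edgeR). On the other side Saraf, a regulator of calcium entry at a distance of 636 kb, was higher with a log2 difference of 0.81 ± 0.14 (SE, adjusted p = 0.00197 in the same edgeR test), and Leprotl1, at 660 kb, was higher with 0.70 ± 0.18 (SE, adjusted p = 0.0126 in edgeR). Lonrf1, 1396 kb beyond Dusp4, had a log2 difference of 0.39 and an adjusted p of 0.162 in edgeR.

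The feedback inhibitors were then set beside 6 lists of other genes of the MAP kinase pathways, 113 genes in all, of which 60 had a row that lines up and each of those was tested. A gene was counted at an adjusted p under 0.05 in edgeR's quasi-likelihood test. By this count 16 rose and 16 fell in Sirt6 cKO chondrocytes and 28 did not pass, so 53.3% passed, against 46.8% of all genes tested (22.5% higher and 24.3% lower) and 49.8% of the 6615 tested rows that line up, from which the lists were drawn (24% higher and 25.8% lower). The median log2 difference of the 60 genes was 0.00 and that of all genes also 0.00. The number that fell was 9 without Sirt6 cKO replicate 1 and 8 without Sirt6 cKO replicate 2.

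Transcripts known to be induced by ERK, of which 10 of 20 were tested, included the largest differences, with 3 that rose, 3 that fell and 4 that did not pass. Etv5, an ETS transcription factor and a common readout of FGF and ERK signaling, had 1790, 2155 and 2220 counts in the WT libraries and 172, 119 and 326 in those of Sirt6 cKO, with no overlap. Its log2 difference was -3.40 ± 0.33 (SE, adjusted p = 0.000102 in edgeR). Etv1, a related factor, fell by 1.98 ± 0.26 on the log2 scale (SE) and Ier3, an immediate early gene, fell by 1.45 ± 0.19 (SE). Epha4, an ephrin receptor, rose by 1.72 ± 0.35 (SE) from a low level of 20 to 61 counts in WT samples. The remaining genes that rose were subunits of the AP-1 transcription factor, named here after their values were seen. Fosb rose by 1.14 ± 0.26 on the log2 scale (SE, adjusted p = 0.00759 in edgeR). The more abundant Fosl2, with 3399 to 4820 counts in WT and 7094 to 9452 in Sirt6 cKO samples, rose by 0.88 ± 0.15 (SE, adjusted p = 0.00182 in edgeR). Etv5, Ier3 and Epha4 had the same order of the 3 Sirt6 cKO samples as Dusp5, Dusp6 and Spry1, as 6 of the 10 genes of this list did. Over all tested genes 25.3% had that order, as did 6 of 15 in the ERK cascade list and 0 of 10 in the JNK and p38 list. Etv1 was highest in Sirt6 cKO replicate 1 and lowest in replicate 3.

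Of 15 tested genes of the ERK cascade itself, among them adaptors, Ras proteins, Raf and MEK kinases, 7 rose and 3 fell. Of these genes 0 passed with a fold change over 2. The Raf kinase gene Araf had a log2 difference of 0.66 ± 0.12 (SE, adjusted p = 0.0027 in edgeR). Braf, which encodes a related kinase, had 707 counts in WT replicate 1 against 2507 and 2357 in the other WT samples, and its log2 difference of 0.51 did not pass (adjusted p = 0.247 in edgeR). With the replicate number as a block it was 0.63 and passed (adjusted p = 0.0274 in edgeR), and without WT replicate 1 it was 0.17. Of the MEK kinases, Map2k2 fell by 0.61 ± 0.17 (SE, adjusted p = 0.0199 in edgeR), a call that was lost without any 1 of the Sirt6 cKO samples (adjusted p = 0.0548, 0.0594 and 0.0764 without replicates 1, 2 and 3). The log2 difference of Map2k2 was -0.39 without WT replicate 1, which had 334 CPM against 227 and 224 in the other WT samples. Map2k1 had a log2 difference of 0.32 (adjusted p = 0.137 in edgeR, and 0.0462 without WT replicate 1).

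Among 10 other tested inhibitors of Ras and ERK signaling 1 rose and 4 fell. Lrig1, which promotes the degradation of receptor tyrosine kinases, fell by 1.08 ± 0.12 (SE) and Pea15a, which holds ERK in the cytoplasm, fell by 1.20 ± 0.16 (SE), each with more than a 2-fold difference. Of 8 other dual-specificity phosphatases and their relatives, 1 rose and 7 did not pass.
In the JNK and p38 modules 2 of 10 tested genes rose and 4 fell. Mapk9, which encodes a JNK kinase, rose by 1.07 ± 0.20 (SE). Of 7 tested ERK substrates and effectors 2 rose and 2 fell, and the related kinases Mknk1 and Mknk2, which phosphorylate a translation initiation factor, differed in direction. Mknk1 rose by 1.30 ± 0.12 (SE, adjusted p = 9.14e-05 in edgeR) and Mknk2 fell by 1.15 ± 0.23 (SE, adjusted p = 0.00364 in edgeR).

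**Figure D4:**
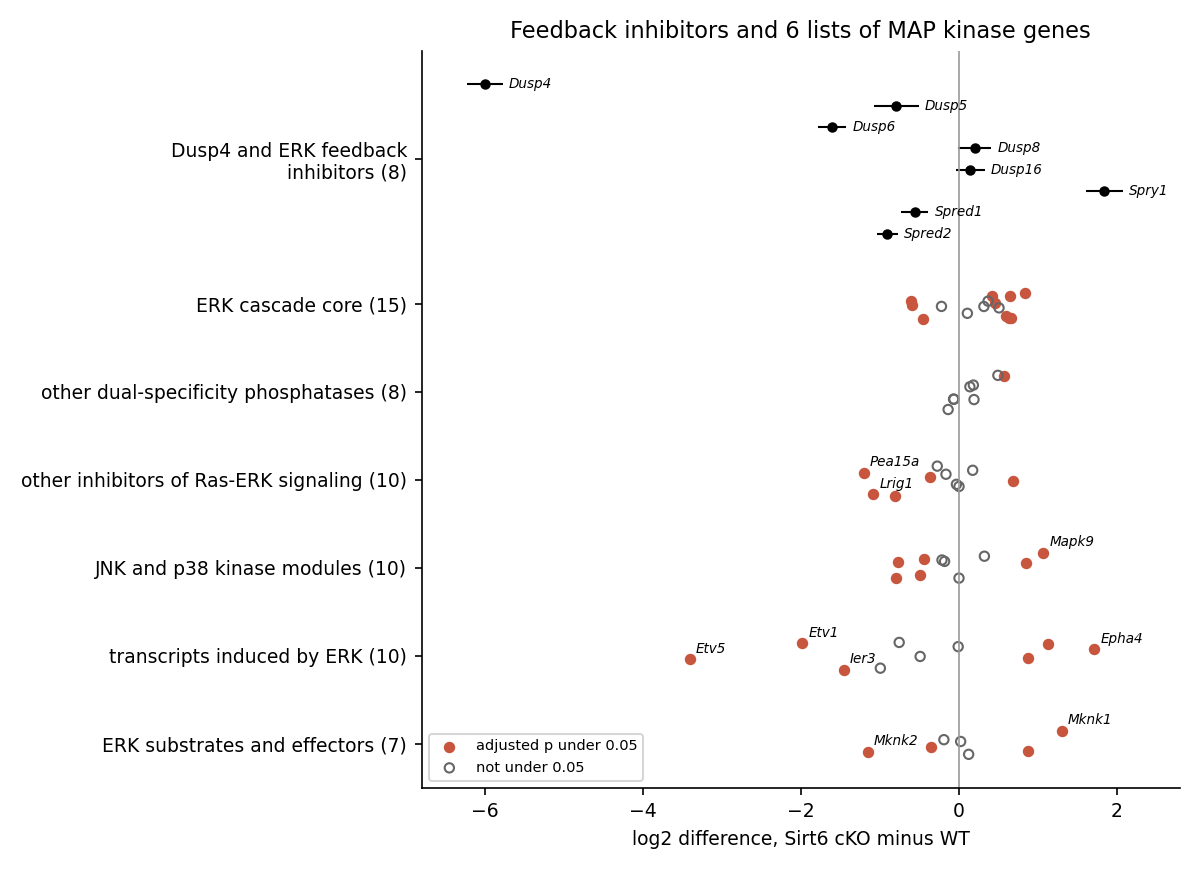
Log2 difference of Sirt6 cKO minus WT for the 8 feedback inhibitors (black, with standard errors) and for the 60 tested genes of 6 lists, filled in red at an adjusted p under 0.05 in edgeR and open otherwise. Dusp4, which was chosen by this difference, lies at -6.00, beyond every gene of the lists, of which Etv5 at -3.40 comes nearest.

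Some marker genes of other cell types differed between the genotypes in the same libraries, and others did not. Of all tested rows that line up, 49.8% passed at an adjusted p under 0.05 in edgeR, so nothing is read from the counts of markers. Of 9 synovial fibroblast markers, 8 were tested, of which 4 rose and 1 fell. Their summed level was 5217 to 5272 CPM in WT and 12693 to 14397 CPM in Sirt6 cKO samples. Most of this sum was the collagen gene Col1a1, at a mean of 4032 CPM in WT and 10178 CPM in Sirt6 cKO samples, and most of the remaining rise was Pdgfra, at 312 and 1617 CPM, and Dcn, at 119.9 and 1235 CPM. Lum also rose from near 0, Cd34 fell by 0.54 ± 0.11 on the log2 scale (SE), and Thy1, Pdpn and Has1 did not pass (adjusted p = 0.605, 0.0563 and 0.717 in edgeR). Of the 5 chondrocyte markers 4 rose and 0 fell, with a summed level of 199 to 217 CPM in WT and 393 to 492 CPM in Sirt6 cKO samples. In WT samples this sum was nearly all Sox9, at a mean of 192 CPM against 295 CPM in Sirt6 cKO samples. The rest of its rise was mainly the cartilage collagen gene Col11a1, at 5.94 to 7.77 CPM in WT and 105 to 120.5 CPM in Sirt6 cKO samples. Comp reached 182 to 322 counts and Ucma 114 to 319 counts in Sirt6 cKO samples, and Col9a3, at 98 to 149 counts, did not pass (adjusted p = 0.0756 in edgeR). Of 7 osteoblast markers 2 were tested, Runx2 and Spp1, and only Spp1 rose. Of 8 leukocyte markers only Cd68 was tested, with 6 to 52 counts per sample and an adjusted p of 0.473 in edgeR, and the 6 endothelial markers were not analysed here. The part of these shifts in the levels of Dusp4 and the other inhibitors was not tested.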

How the data were processed

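The authors deposited 1 table of raw counts per Ensembl gene for 6 samples, with exon positions and summed exon length. The submitters' processing notes name cutadapt, HISAT2 2.0.5 and StringTie, and the human build hg19, whereas identifiers and positions are those of mouse GRCm38. The methods describe strand-specific libraries, but the counter and the strand setting of the counting are not given in the sources used here, so reads of a gene and of a transcript overlapping it may not be told apart. The labels and the methods name different library kits and sequencers.

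A row took the name of the RefSeq gene of GRCm38.p6 whose span it shared by a fraction of 0.5 or more of both together, which named 10609 of 11659 rows. Counts and labels were taken to line up in identifiers 1 to 20900 and 25770 to 48200, without 2 rows out of order, which left 6621 rows. In these ranges Spearman's rho between exon length and count was 0.252 and 0.295 on the same row and at most 0.042 on rows 1 to 5 away.

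All rows were fitted with edgeR 4.0.16 in R 4.3.3 (TMM, filterByExpr, glmQLFit, glmQLFTest, Benjamini-Hochberg adjustment), which tested 11246. Standard errors were derived from the log2 difference and its F statistic. The fit was tested on simulated data. CPM per kb is CPM divided by exon length. The log2 profiles used a prior count of 0.5, and genes averaging 100 or more normalized counts. The log2 ratios of WT replicate 1 across rows used CPM plus 0.5, and the ratios of single genes used CPM alone. Named list genes are the Raf and MEK kinases and up to 4 genes per list with an adjusted p under 0.05, a fold change over 2 and at least 20 counts on average. The nearest 2 rows on each side of Dusp4 were named as well. Some named genes are not reported here.

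Deviations from the genotype mean correlated between same-numbered samples at 0.262, 0.104 and 0.136 across genes (0.225, 0.095 and 0.119 with a prior count of 0.5). Samples with different numbers were not compared in this way. The pairing rests on the numbers in the labels. Genes and lists were chosen with earlier results of these data known. Alternatives were RLE, upper-quartile and total-count scaling, DESeq2 1.42.0, no low-count filter, a minimum of 10 counts per sample, the replicate block, leaving out each sample, and fitting only rows that line up.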

Additional observations from a re-analysis of the deposited data

How the results depend on the processing

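Across 14 alternatives the log2 difference of Dusp4 lay between -6.15 and -5.84, both ends from leaving out 1 sample. Dusp5, Dusp6, Spred1 and Spred2 were lower in Sirt6 cKO samples and Spry1 and Dusp8 higher in each of the 14, and Dusp16 was higher in 13 and lower in 1, without WT replicate 1. When only the rows that line up were fitted, fewer genes were tested, and 1623 rose and 1736 fell at an adjusted p under 0.05, 590 and 499 of them by more than 2-fold, against 2530, 2736, 981 and 804. Leaving out 1 sample gave 1788 to 3105 higher and 1903 to 3139 lower genes, and 951 to 1167 and 735 to 910 with a fold change over 2. Of the genes on the pathway lists 12 to 19 rose and 8 to 19 fell when 1 sample was left out. The balance of directions depended on the scaling. With upper-quartile factors 2895 genes rose and 2332 fell, and of the list genes 17 rose and 12 fell. With total counts alone 2715 genes rose and 2561 fell, and of the list genes 15 rose and 13 fell. Under the replicate block, 2883 genes rose and 2868 fell, the log2 difference of Dusp4 was -6.00, and of the named genes tested the calls of Braf and Tnks changed, both of which then passed. DESeq2 gave -6.01 for Dusp4. Map2k2 did not pass in 3 of its 14 alternatives, whereas Tnks passed in 6. In Sirt6 cKO samples depth limits what can be said of Dusp4, since 10 to 15 reads cannot order the replicates.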
